A study of Triticum aestivum with 10 samples.

Results

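Short anthers of the wheat line BS366, 1.5 and 2.0 mm long, were compared between a sterile and a fertile treatment on 4 arrays, 1 array for each length and treatment, out of 10 arrays in the series. The arrays were chosen by anther length. These are the lengths at which the sterile and the fertile arrays were most alike, with a correlation across probe sets of 0.931 at 1.5 mm and 0.934 at 2.0 mm, against 0.874, 0.861 and 0.799 at 2.2, 2.5 and 3.0 mm. Across lengths, the sterile 2.0-mm array had 0.941 with the fertile 1.5-mm array, and the sterile 1.5-mm array 0.933 with the fertile 2.0-mm array. Whether anthers of equal length were at an equal stage was not tested. BS366 is a thermo-sensitive genic male sterile (TGMS) line, whose pollen fails when the plant meets cold near meiosis. The fertile treatment was growth at 20 °C and the sterile treatment 5 days at 10 °C, under the same 12 h photoperiod. The cold began when the flag leaf was partly out. All arrays share the same genotype. The groups differ in temperature and in whatever temperature did to growth. Any difference between the groups in RNA preparation or hybridization was not tested. The signals are intensities from the MAS5 algorithm, which summarises the short probes of a transcript, a probe set, into a linear value. With a single array per length and treatment, both lengths stand in for replicates. A difference at a single length could not be tested.

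An anther is a pollen sac whose inner wall layer, the tapetum, feeds the developing microspores and builds the pollen coat. Tapetal genes such as those of the RAFTIN proteins, which matter for pollen development, are switched on around meiosis and serve as markers of that layer. The outer wall of a young anther is green and holds chloroplasts, and the dividing cells of the sac make histones and tubulins. Cold at this time is known to disturb the tapetum and the supply of sugars to pollen in cereals.

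The tapetal markers were well measured on the 4 arrays, so that the label anther holds. TaRAFTIN1A and TaRAFTIN1B summed to a signal of 3080 and 4843 on the fertile arrays and of 1299 and 1191 on the sterile arrays. Their probe sets may detect the same transcripts, so the sum may count a signal more than once. The 4 green tissue markers PRK, PsbP, PsbO and petC summed to 2803 and 3847 on the fertile and to 2252 and 1882 on the sterile arrays. The 3 seed markers Gli-8, Glu-3 and AGP-S summed to 886 and 1013 against 843 and 790, nearly all of it from AGP-S, a starch synthesis gene. No marker was listed at 0. The mean signals of the 4 arrays were 118 to 125. The 18S rRNA control probe set, which was left out of all counts, gave 315 and 8.78 on the fertile arrays and 2833 and 50.1 on the sterile arrays at 1.5 and 2.0 mm. Poly-A spike-in controls averaged 547 and 154 on the fertile and 129 and 260 on the sterile arrays of 1.5 and 2.0 mm. The part of either control in the differences was not tested. Fewer cells of a type and less RNA per cell cannot be told apart in whole anthers.

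In short anthers, transcripts that were lower after cold outnumbered those that were higher. Signals under a floor of 4.05, the table's 20th percentile, were raised to the floor, and the 30590 probe sets with a mean log2 level at or above the median were compared, as sterile minus fertile log2 differences. Of these, 1870 (6.11%) were at least 2-fold lower in the sterile anthers at 1.5 mm and 2143 (7.01%) at 2.0 mm, and 556 (1.82%) were lower by that much at both lengths. At least 2-fold higher were 895 (2.93%) at 1.5 mm, 632 (2.07%) at 2.0 mm and 93 (0.304%) at both. A further 171 (0.559%) passed 2-fold at both lengths in opposite directions. At 1.5-fold the counts at both lengths were 1786 lower (5.84%) and 503 higher (1.64%), and at 3-fold 179 (0.585%) and 14 (0.0458%). Counted at any size, 35% of the tested probe sets were lower at both lengths and 23.2% were higher at both. Between the fertile arrays of 1.5 and 2.0 mm 6.09% of the probe sets differed by 2-fold or more, and between the sterile arrays 5.12%. Between treatments the shares were 9.04% at 1.5 mm and 9.07% at 2.0 mm. The differences at both lengths had a correlation of 0.25 across probe sets, which are not independent of each other. The lists of 556 and 93 hold no replicate test. Their split depended on how the arrays were scaled, with 14.3% on the higher side as deposited, 23.3% after quantile normalization and 26.2% after median centring. At 1.5 mm alone the higher share was 32.4% as deposited and 52.0% after median centring, and at 2.0 mm 22.8% as deposited and 37.7% after quantile normalization.

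**Figure D1:**
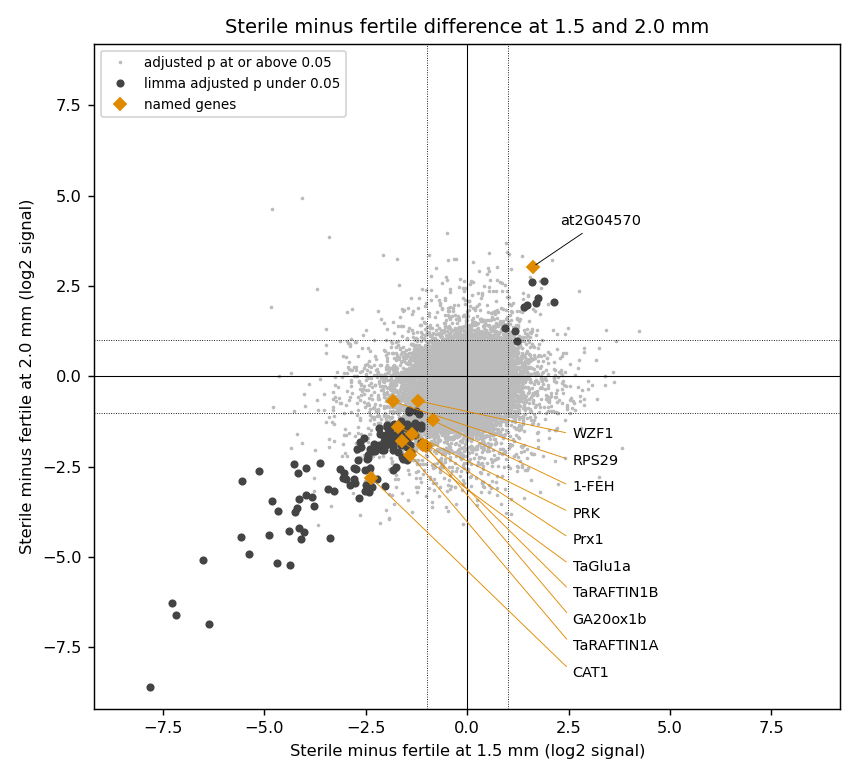
Each point is 1 of the 30590 probe sets, with the sterile minus fertile log2 difference at 1.5 mm on the x axis and that at 2.0 mm on the y axis; dotted lines mark 2-fold. Dark points passed limma, orange diamonds are genes named by rule, and most dark points (133 of 143) lie in the lower left.

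In limma, with anther length as a block, 133 probe sets (0.435%) were lower and 10 (0.0327%) were higher in sterile short anthers at an adjusted p under 0.05, together 143 (0.467%). At an unadjusted p under 0.05 the counts were 2590 (8.47%) and 1199 (3.92%), together 12.4% of those tested. The higher share of the limma calls was 7.0% as deposited, 19.5% after quantile normalization and 25.3% after median centring. The 133 lower probe sets had a median log2 difference of -2.06, about 4.18-fold, and 130 of them were also at least 2-fold lower at both lengths. They were bright, with a median signal of 231 over the 10 arrays against 81.2 for all tested probe sets. The fit had 1 residual degree of freedom and borrowed most of its spread from the other probe sets. No probe set passed when the spread was taken without an intensity trend, from all 10 arrays or with no filter on dim probe sets, when 3031, 1882 and 4603 had an unadjusted p under 0.05, or when the pair of 1.5 mm or of 2.0 mm was left out.

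TaRAFTIN1A and TaRAFTIN1B, the tapetal genes, were lower in short sterile anthers by all 4 of their probe sets, of which 3 passed limma. TaRAFTIN1A had signals of 1577 and 2395 in fertile anthers of 1.5 and 2.0 mm, and of 594 and 535 in sterile anthers. It was thus 2.66-fold lower at 1.5 mm and 4.48-fold lower at 2.0 mm, with a mean log2 difference of -1.79 (SE 0.21, adjusted p = 0.0246 from limma). Both sterile signals lay below the lowest of all 5 fertile arrays, as in 10.5% of all tested probe sets. A limma pass favours such a gap, so nothing is read from it. The other TaRAFTIN1A probe set had log2 differences of -1.86 and -1.13 and did not pass (adjusted p = 0.0518 from limma).

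TaRAFTIN1B had fertile signals of 1503 and 2447 and sterile signals of 706 and 656 by its brightest probe set, with a mean log2 difference of -1.50 (SE 0.22, adjusted p = 0.0473 from limma). Its second probe set had 1422 and 1947 against 254 and 242, a 5.59-fold difference at 1.5 mm and an 8.03-fold difference at 2.0 mm (mean log2 difference -2.74, SE 0.20, adjusted p = 0.00504 from limma). The groups did not overlap in either probe set, but a limma pass favours such a gap, so nothing is read from it. The sequences of these homoeologs are alike enough that a probe set may detect both. Their brightest probe sets had similar signals, such as 5903 and 5941 in fertile anthers of 2.2 mm. Agreement between the genes may thus be that of 1 measurement. In the fertile series the brightest probe set of each gene went up from 1.5 to 2.0 mm, while its sterile signals at the same lengths were slightly down. The tapetal list, made up of only these genes, had a median mean difference of -1.64 log2, beside -0.074 for all tested probe sets.

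Genes of hydrogen peroxide and redox control were mostly lower in short sterile anthers, and CAT1 had the largest mean difference among the brightest probe sets of the named genes. CAT1, a catalase that breaks down hydrogen peroxide, gave 249 and 356 in fertile and 48.4 and 50.5 in sterile anthers. It was 5.14-fold lower at 1.5 mm and 7.05-fold lower at 2.0 mm (mean log2 difference -2.59, SE 0.25, adjusted p = 0.0141 from limma). The sterile signals were nearly equal to each other. They were below all 5 fertile signals, as in 62.4% of the 133 lower limma calls and 10.5% of all tested. Prx1 gave 463 and 621 against 179 and 204 by its brightest probe set, 2.59-fold and 3.04-fold lower (mean log2 difference -1.49, SE 0.20, adjusted p = 0.0394 from limma). Its other 2 probe sets were lower at both lengths but did not pass (adjusted p = 0.237 and 0.109 from limma). Trx-M, a chloroplast thioredoxin, had log2 differences of -0.35 and -0.80. GSTZ1, a zeta-class glutathione transferase, had 0.66 and -0.055 by its brighter probe set and -1.11 and 0.42 by its dimmer one. Of the 7 probe sets of this list, 5 were lower at both lengths (35% of all tested were) and 0 were higher at both (23.2% of all tested), and 2 passed limma, all lower. With 1 probe set per gene, 3 of the 4 genes were lower at both.

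**Figure D2:**
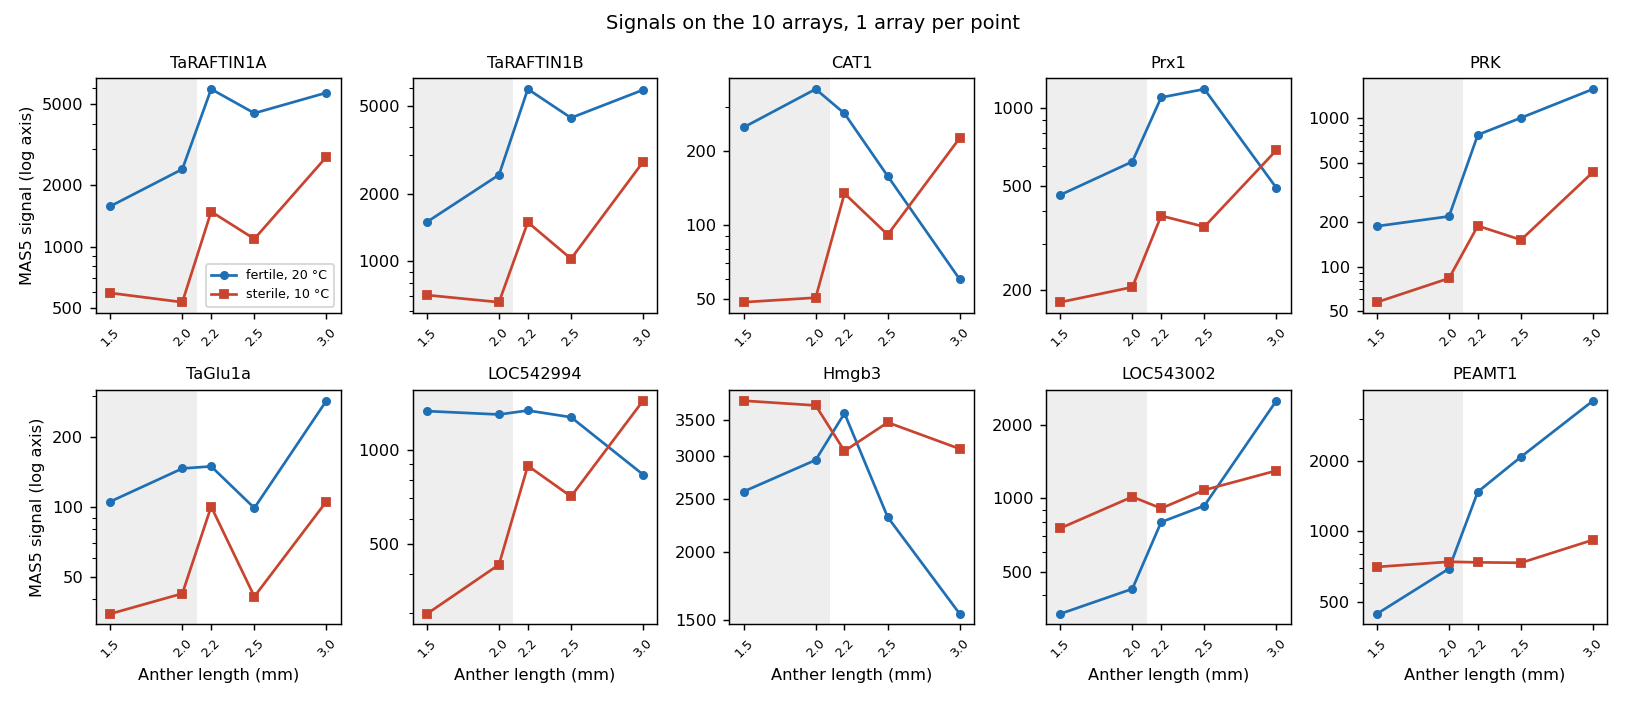
MAS5 signal on a log axis against anther length in mm for 10 genes, 1 array per point, with fertile arrays in blue, sterile arrays in red and the short anthers shaded. In the shaded part the sterile points lie below the fertile ones for TaRAFTIN1A, TaRAFTIN1B, CAT1, Prx1, PRK, TaGlu1a and LOC542994, and above them for Hmgb3, LOC543002 and PEAMT1.

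Of 15 photosynthesis probe sets 10 were lower at both lengths and 2 were higher at both, beside 35% and 23.2% of all tested, and 0 passed limma. Of the 15, 8 belonged to a single gene, rbcl, with 4 lower, 1 higher and 3 mixed. PRK, the phosphoribulokinase of the Calvin cycle, gave 187 and 218 in fertile against 57.5 and 83.3 in sterile anthers. This is 3.26-fold lower at 1.5 mm and 2.62-fold lower at 2.0 mm, with a mean log2 difference of -1.55 (SE 0.24, adjusted p = 0.0596 from limma). After quantile normalization its adjusted p was 0.0365 in limma, the lowest under any alternative setting. After median centring it did not pass. PsbP, a subunit of the oxygen-evolving complex, gave 903 and 1250 against 682 and 539. The gap was small at 1.5 mm (-0.40 log2) and larger at 2.0 mm (-1.21 log2). The Rieske protein gene petC showed the same shape, with log2 differences of -0.20 and -1.07, and so did FBP, a fructose bisphosphatase, with -0.43 and -0.94, although a dimmer FBP probe set was higher at both lengths. The list median was -0.20 log2 at 1.5 mm and -0.78 at 2.0 mm. The brightest rbcl probe set, for the plastid-encoded large subunit of Rubisco, was level, at 5695 and 4604 against 4874 and 5998.

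Genes of sugar, starch and fructan metabolism included 4 probe sets of 7 that were lower at both lengths and 0 that were higher at both, beside 35% and 23.2% of all tested, and 0 passed limma. The count of 4 is not far from that share of a list this small. 1-FEH, a fructan exohydrolase that frees fructose from stored fructan, gave 534 and 704 in fertile and 295 and 303 in sterile anthers, with a mean log2 difference of -1.04 (SE 0.20, adjusted p = 0.0932 from limma, and 0.0495 after quantile normalization). The second p-value is the lowest under any alternative setting, and after median centring 1-FEH did not pass. The sterile signals of 1-FEH lay below all 5 fertile ones, as in 10.5% of all tested. The naming rule ranks on the short-length differences, so nothing is read from this gap. BMY1, a beta-amylase that cuts starch to maltose, gave 452 and 166 against 98.7 and 115. The fertile arrays thus differed from each other by more than the 2.0-mm arrays differed between treatments. Pgk-1, a phosphoglycerate kinase, had log2 differences of -0.43 and -1.30, and 6-FEH had 0.098 and -0.92. The list median was -0.14 log2 at 1.5 mm and -0.92 at 2.0 mm.

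Other named genes that were lower at both lengths did not pass limma. TaGlu1a, a beta-glucosidase that releases benzoxazinoid defence compounds, gave 106 and 147 against 34.6 and 42.3, a mean log2 difference of -1.70 (SE 0.27, adjusted p = 0.06 from limma, and 0.0359 after quantile normalization). The second p-value is the lowest under any alternative setting, and after median centring TaGlu1a did not pass. GA20ox1b, a gibberellin 20-oxidase of hormone synthesis, was dim, with 27.8 and 39.9 in fertile and 13.7 and 10.4 in sterile anthers. Its mean log2 difference was -1.48 (SE 0.53, adjusted p = 0.331 from limma), and its relative GA20ox1a had log2 differences of -0.45 and -0.86. RPS29, a ribosomal protein gene, had -1.83 and -0.69, and WZF1, a zinc finger gene, had -1.21 and -0.68. In both, the larger difference was at 1.5 mm.

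Some genes with only a locus number in the annotation were also lower. Of the 866 tested probe sets with a gene of any kind, 285 were lower at both lengths and 255 were higher at both. Among all tested, 35% were lower and 23.2% higher at both. The lower share of those with a gene was thus slightly smaller, and the higher share larger. The locus-number genes given here were chosen after their values were seen, and the annotation used gives them no product. LOC542778 gave 2837 and 2553 in fertile against 901 and 925 in sterile anthers by 1 probe set (mean log2 difference -1.56, SE 0.15, adjusted p = 0.0139 from limma). Its other probe set had log2 differences of -2.98 and -0.78 and did not pass (adjusted p = 0.343 from limma). LOC542994 gave 1333 and 1301 against 299 and 430 (-1.88, SE 0.20, adjusted p = 0.0181 from limma), and LOC543048 gave 386 and 411 against 123 and 123 (-1.69, SE 0.21, adjusted p = 0.0286 from limma). LOC732707 passed by both of its probe sets, with 387 and 488 against 148 and 114 by one and 384 and 530 against 158 and 171 by the other. A limma pass favours fertile and sterile pairs that lie apart, so nothing is read from the spacing of the signals in these 4 genes. Of the 133 lower probe sets, 10 had a gene, 8 genes in all, and 5 of those probe sets had a gene name. Among all 30590 tested, 866 had a gene.

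The largest differences belonged to probe sets with no gene in the annotation, as most have none (866 of the 30590 tested had a gene). They are described here by the rank of the smaller of their differences at 1.5 and 2.0 mm. The leading one gave 1967 and 1734 in fertile and 8.7 and 4.4 in sterile anthers (adjusted p = 0.000397 from limma). Its sterile signals were close to the floor of 4.05, so no fold is given. The next one gave 590 and 393 in fertile anthers, while both sterile signals were under the floor. Counted from the floor it was at least 146-fold lower at 1.5 mm and at least 97.0-fold lower at 2.0 mm. Both were thus near or under the floor in the cold and bright in fertile anthers of the same lengths. Of the 556 probe sets, 52 had a sterile signal at the floor at 1.5 or 2.0 mm, so that their differences are lower bounds. A mean signal of 100 or more was reached by 211 of the 556, a smaller share than the 43.5% of all tested.

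No named gene that was higher in short sterile anthers passed limma, and most of the differences on this side were small. By the naming rule at2G04570 was the only gene at least 1.5-fold higher at both lengths. It was dim, with 23.0 and 6.87 in fertile and 70.7 and 56.3 in sterile anthers (mean log2 difference 2.33, SE 0.48, adjusted p = 0.118 from limma). The sterile signals were above the fertile ones of the same lengths but within the range of the 5 fertile arrays, which reached 105 at 3.0 mm. Of the 10 higher probe sets that passed, 1 had a gene, LOC543002. It gave 336 and 425 in fertile and 754 and 1015 in sterile anthers, 2.25-fold and 2.39-fold higher (mean log2 difference 1.21, SE 0.17, adjusted p = 0.0473 from limma). A second probe set had log2 differences of 1.25 and 1.43 and an adjusted p of 0.0531 from limma. The remaining one went opposite ways, with 0.84 at 1.5 mm and -1.18 at 2.0 mm (adjusted p = 0.95 from limma). Both LOC543002 and the locus-number genes above were named after their values were seen.

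Among higher probe sets without a gene, the leading one gave 1.4 and 4.4 in fertile against 27.4 and 22.8 in sterile anthers. The next one gave 11.3 and 2.7 against 48.6 and 37.9. Neither passed limma (adjusted p = 0.302 and 0.142). Both had a fertile signal under the floor, so 1 difference in each is a lower bound. Among those that passed, a probe set chosen after its values were seen gave 325 and 236 against 858 and 893. The median signal of the 93 higher probe sets was 37.1, against 68.2 for the 556 lower ones and 81.2 for all tested.

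Histone and chromatin genes were slightly higher in short sterile anthers in nearly every probe set, none of which passed limma. Of 20 probe sets of 6 genes, 17 were higher at both lengths and 1 was lower at both. With 1 probe set per gene, 5 of the 6 genes were higher at both. The list median was 0.30 log2, 0.23 after quantile normalization and 0.42 after median centring. Among all tested probe sets 23.2% were higher at both lengths. Hmgb3, a high-mobility-group protein that bends DNA, gave 2583 and 2951 in fertile and 3790 and 3716 in sterile anthers (mean log2 difference 0.44, SE 0.13, adjusted p = 0.244 from limma). H2A-9 gave 3874 and 3796 against 4647 and 4998, and wcH2B-6 gave 2215 and 2756 against 3471 and 3210. H2A-3 had log2 differences of 0.24 and 0.34, with its dimmer probe set at -0.49 and -0.063. The list median at 2.2, 2.5 and 3.0 mm was 0.86, 0.92 and 1.42 log2, against 0.36 at 1.5 mm and 0.26 at 2.0 mm. Probe sets of histone families share sequence, and their signals may be drawn from several copies.

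Tubulin genes, whose products form the spindle and cytoskeleton, were also slightly higher. Of 10 probe sets of 6 genes, 8 were higher at both lengths and 0 were lower at both (23.2% and 35% of all tested). Their median was 0.24 log2, and 0 passed limma. With 1 probe set per gene, 4 of the 6 genes were higher at both. TUBA, an alpha-tubulin, gave 3052 and 3130 in fertile and 3736 and 4048 in sterile anthers, and its dimmer probe set was higher at both lengths too. Tubb5, a beta-tubulin, gave 1066 and 1046 against 1190 and 1355. The genes tubb3 and tubb1 had log2 differences of 0.055 and 0.020 at 1.5 mm and of 0.39 and 0.41 at 2.0 mm.

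**Figure D3:**
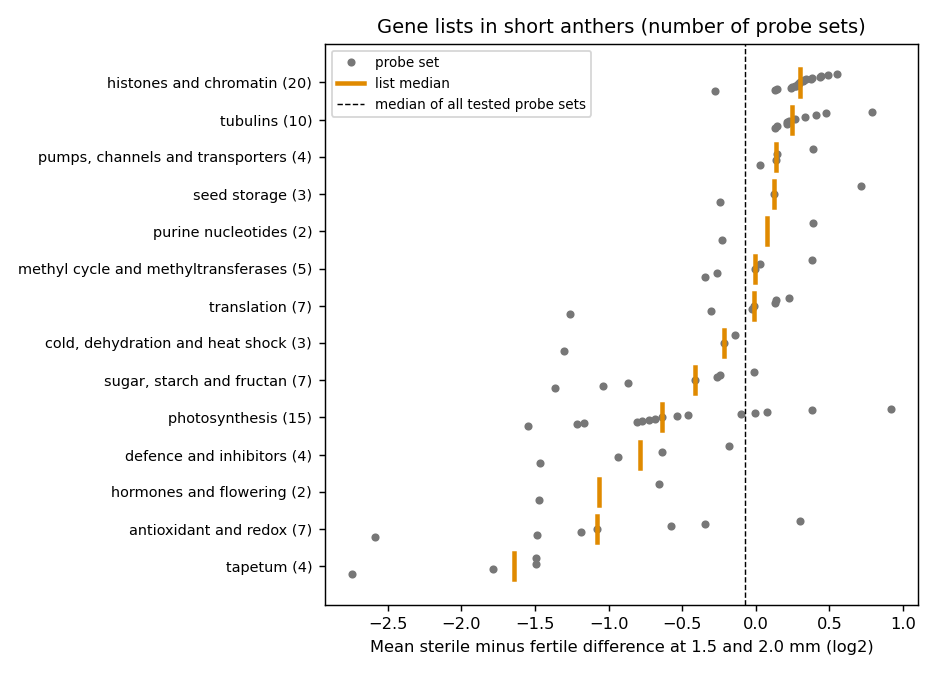
Mean sterile minus fertile log2 difference over 1.5 and 2.0 mm on the x axis for each probe set (grey points) of 14 gene lists, with the list median in orange and the median of all tested probe sets as a dashed line. The tapetum probe sets lie between -2.74 and -1.50, and all but 1 of the 20 histone and chromatin probe sets lie above 0.

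The remaining lists were small, and 0 of their probe sets passed limma. In the methyl cycle, which supplies methyl groups, SAHH, the hydrolase that clears its by-product, was level at 3273 and 3539 against 3258 and 3693. COMT1, a lignin methyltransferase, had -0.39 and -0.13 log2, PIMT, a protein repair methyltransferase, had 0.054 and -0.75, and PEAMT1, a methyltransferase of choline synthesis, had 0.66 and 0.097. For cold and dehydration, Rab15, a dehydrin, had -0.15 and -0.14 log2 by its brighter probe set and EM, a late embryogenesis protein, had -0.76 and 0.33, both at signals under 80. The dimmer Rab15 probe set did not go the same way at both lengths, with a mean difference of -1.30 log2. In translation, TEF1 had 0.15 and 0.31, eIF4E, the cap-binding factor, 0.38 and -0.13, and RPL9 -0.064 and -0.55. In defence, LTP3, a lipid transfer protein, had -1.44 and -0.44, XIP-I, a xylanase inhibitor, -1.01 and -0.26, and ATI -0.098 and -0.26. The dimmer XIP-I probe set did not go the same way at both lengths, with a mean difference of -1.47 log2. In purine metabolism, APRT, which salvages adenine, had 0.40 and 0.38, and AdSS, which makes the precursor of AMP, had -0.082 and -0.38. The calcium channel gene TPC1 had 0.58 and 0.20 and the proton pump gene H+-ATPase 0.043 and 0.24. The seed storage genes Glu-3, ALP and Gli-8 had 1.34 and 0.080, 0.22 and 0.022, and 0.35 and -0.83.

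The 133 probe sets that passed on the lower side were then followed on the 6 arrays of longer anthers, which had no part in that fit beyond the filter on mean level. At 2.2 mm 76 of them (57.1%) and at 2.5 mm 83 (62.4%) were at least 2-fold lower, against 7.17% and 10.6% of all tested probe sets. At 3.0 mm many differed the other way, a comparison that rests on 1 array per treatment. The fertile 3.0-mm array stood apart from the other 9, with a mean correlation with them of 0.786 against 0.867 to 0.917 for the others, and its part in the result was not tested. There 72 (54.1%) were at least 2-fold higher in the sterile anthers and 18 (13.5%) at least 2-fold lower, against 11.2% and 10.8% of all tested. Their median fertile signal was 389, 426, 628 and 602 at 1.5, 2.0, 2.2 and 2.5 mm and 162 at 3.0 mm. Their median sterile signal was 72.8, 88.9, 240 and 169 at the first 4 lengths and 522 at 3.0 mm. The sterile median at 3.0 mm was thus above the fertile medians of 1.5 and 2.0 mm. The leading probe set without a gene had 4.4 in fertile and 3506 in sterile anthers of 3.0 mm. CAT1 ended at 60.0 against 225, and LOC542778 at 654 against 3825. TaRAFTIN1A and TaRAFTIN1B were lower at 3.0 mm too, by log2 differences of -1.04 and -1.08.

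**Figure D4:**
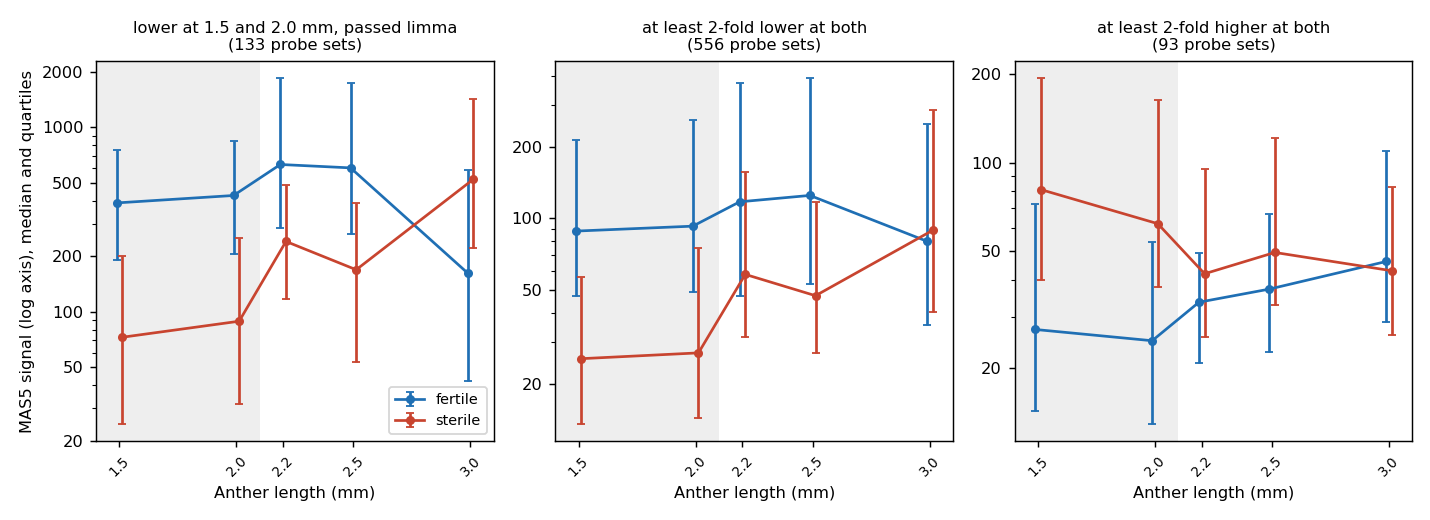
Median MAS5 signal (points) and quartiles (bars) on a log axis against anther length in mm for the 133 probe sets lower by limma, the 556 at least 2-fold lower at both short lengths and the 93 at least 2-fold higher at both, with fertile arrays in blue and sterile in red. The shaded short anthers defined the sets, so the gap there is given by construction; at 3.0 mm the medians of the 133 are 162 fertile and 522 sterile.

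Of the 556 probe sets 223 (40.1%) were at least 2-fold lower at 2.2 mm, 292 (52.5%) at 2.5 mm and 149 (26.8%) at 3.0 mm, where 156 (28.1%) were at least 2-fold higher. At all 5 lengths 210 were lower, and 69 were lower by at least 2-fold. Among all tested probe sets 8.57% and 0.226% were so, and since the list was chosen on 2 of the 5 lengths its shares must exceed these. In 384 members both short sterile signals were below the lowest of the 5 fertile signals, as in 10.5% of all tested, but members were chosen on these short sterile signals, so nothing is read from the count. Of the 93 higher members, 32 (34.4%) were at least 2-fold higher at 2.2 mm, 33 (35.5%) at 2.5 mm and 21 (22.6%) at 3.0 mm, against 10.5%, 6.07% and 11.2% of all tested. At 3.0 mm 24 of the 93 (25.8%) were at least 2-fold lower, against 10.8% of all tested. At all 5 lengths 29 were higher, as were 8.87% of all tested. In 44 of the 93 both short sterile signals were above all 5 fertile signals, as in 11.1% of all tested; here too the members were chosen on the short arrays, and nothing is read from the count.

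The cold difference in short anthers was set against that in anthers of 2.2 and 2.5 mm in a fit of 8 arrays. The difference itself passed limma for 357 probe sets (1.17%), 187 (0.611%) with a lower and 170 (0.556%) with a higher sterile minus fertile value in the longer anthers. After median centring the counts were 177 and 93. PEAMT1 was the only named gene to pass. Its signals were 445 and 693 in fertile and 705 and 741 in sterile short anthers, and 1473 and 2076 against 737 and 734 at 2.2 and 2.5 mm. The fertile signal was higher at each greater length while the sterile one was nearly level, and the difference changed by -1.63 log2 (SE 0.29, adjusted p = 0.041 from limma). CAT1 had a change of 1.65 log2 (SE 0.35, adjusted p = 0.0684 from limma), its gap being narrower in the longer anthers, and at2G04570 had -3.19 (SE 0.74, adjusted p = 0.0975 from limma). For TaRAFTIN1A the change was -0.23 log2 (SE 0.28, adjusted p = 0.775 from limma) and for Prx1 -0.15 (SE 0.27, adjusted p = 0.86 from limma), which leaves room for changes of either sign. Of the 133 lower probe sets 24 passed with a narrower and 8 with a wider gap in the longer anthers, but the contrast subtracts the very differences that the 133 were chosen on, which favours a narrower gap, and nothing is read from that split. The count of 357 was 0 with no filter on dim probe sets or with all 10 arrays, 45 without an intensity trend, and 42 to 517 when 1 length was left out, the lowest without the 2.5-mm pair and 169 without the 2.2-mm pair.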

How the data were processed

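The authors deposited MAS5 signals, an intensity per probe set on a linear scale, for 61290 rows of the Affymetrix Wheat Genome Array on 10 arrays. The sources used here give neither the MAS5 version nor whether RNA came from separate plants, so p-values measure the spread between these arrays only. The 111 control probe sets were left out, signals under 4.05 were raised to it, log2 was taken, and limma 3.58.1 in R 4.3.3 was run on the 30590 probe sets whose mean reached the median (Benjamini-Hochberg threshold 0.05, two-sided, length as a block, 1 residual and 6.05 prior degrees of freedom). The contrast with 2.2 and 2.5 mm had 2 residual degrees of freedom. An exact permutation of 2 against 2 arrays cannot go below p = 0.333. The files hold no detection calls, and the number of arrays limits the precision.

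Members and gene lists were chosen with earlier results of these data known. Names were read from a platform table that gives 1273 probe sets a gene. Of its 771 genes, 770 matched RefSeq on the assembly IWGSC CS RefSeq v2.1. A gene was given for 866 tested probe sets and a gene name for 121. Per direction, up to 12 named genes at least 1.5-fold changed at both lengths were eligible (10 lower, 1 higher), with the 2 leading probe sets without a gene and up to 4 genes per list, each by its brightest probe set. Genes with a locus number were to be named by product, which the table does not hold. Methylation genes were not analysed here. The main fit was also run on simulated data, with the same effect at both lengths and a spread drawn from the fitted prior. That run cannot show whether both lengths can stand in for replicates. Alternatives were quantile normalization, median centring, other floors and filters, no block, no trend, all arrays, other folds and leaving out each length.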

Additional observations from a re-analysis of the deposited data

Results flagged for a closer look

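Among 47 named genes, the differences at the 5 lengths were searched for a length that stands apart from the others, as were 5 properties of the 10 arrays. Of these 52 groups 6 had such a value, and chance gives about 1 in 20. In Prx1 (0.48 log2), COMT1 (-3.66), APRT (-0.17) and RPL9 (3.18) it was the 3.0-mm difference, so the values at 1.5 and 2.0 mm are not those that stand apart. The hybridization controls averaged 771 on the fertile 2.2-mm array, and the fertile 3.0-mm array had the lowest mean correlation with the others, 0.786. Neither is an array of short anthers.

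The cold difference of PEAMT1 changed by -1.63 log2 between short anthers and those of 2.2 and 2.5 mm in limma (adjusted p = 0.041). For at2G04570 (mean log2 difference 2.33 in short anthers) and Rab15 (-0.14 by its brighter probe set) both short lengths went one way and the 3 longer lengths the other. That difference over all 5 lengths was not tested. Between the short lengths and those of 2.2 and 2.5 mm neither gene passed limma (adjusted p = 0.0975 and 0.276).

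The 18S rRNA control probe set, outside all counts, was higher on the sterile array by 3.17 log2 at 1.5 mm and by 2.51 log2 at 2.0 mm.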

How the results depend on the processing

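The limma count of 143 in short anthers was 348 after quantile normalization, 91 with a floor at the 40th percentile, and 0 with no filter, with all 10 arrays or without a trend. It was 198, 152 and 141 after median centring, with no floor and with the stricter filter. After quantile normalization all 143 were among the calls. With no replicate block 210 passed, 125 of them shared. Leaving out either length gave 0, in a fit where the remaining pair is assumed to vary like the arrays of 2.2 to 3.0 mm. The 556 lower probe sets became 1336 with no filter, 342 with the stricter filter, 1786 at 1.5-fold and 179 at 3-fold, and 1870 to 2143 by a single length. The 93 higher ones became 588, 36, 503 and 14 in the same order, 151 after median centring, and 632 to 895 by a single length. The 357 of the contrast with 2.2 and 2.5 mm became 0 with no filter or with 10 arrays, 45 without a trend, and 42 to 517 with a length left out; the other scalings and floors gave 270 to 443. Median centring moved the median difference of all probe sets at 1.5 mm from -0.013 to 0.14 log2, and quantile normalization that at 2.0 mm from -0.13 to 0.014. Of 459 values of named genes and probe sets under the alternatives, 421 kept direction and side of the threshold, 26 lost the call, 4 gained it and 8 turned. Those 8 had small differences: leaving out the 1.5-mm or the 2.0-mm pair gave GSTZ1 -0.055 or 0.66, EM 0.33 or -0.76, eIF4E -0.13 or 0.38, PIMT -0.75 or 0.054, SAHH 0.062 or -0.0065, Gli-8 -0.83 or 0.35 and 6-FEH -0.92 or 0.098, and quantile normalization gave SAHH -0.15. TaRAFTIN1B and Prx1 missed the threshold with the higher floor (adjusted p = 0.0806 and 0.0578 from limma). The cause of these changes was not tested. The higher probe sets had a median signal of 37.1, nearer the floor than the lower ones (68.2).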

Other observations

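The array also carries control probe sets for a glucose-6-phosphate dehydrogenase (G-6-PDH), the enzyme that opens the pentose phosphate pathway, which were left out with the other controls. In short anthers the 3' probe set gave 1567 and 1492 in fertile and 403 and 443 in sterile anthers, the middle one 1393 and 1149 against 319 and 412, and the 5' one 811 and 762 against 164 and 173. All 3 were thus lower in the sterile anthers of both lengths, by 3.88-fold and 3.37-fold for the 3' probe set, and they report 1 transcript. The ubiquitin controls on the same arrays were level, at 2375 and 2311 against 2243 and 2700 for the 3' probe set. These values have no test.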
